A study of Rattus norvegicus with 132 samples.

Results

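Giving irradiated rats water by mouth, the oral vehicle of a herbal powder, was compared with irradiation alone in jejunum epithelium. The comparison used 24 of the 132 libraries of the series, 6 in each of 4 groups, chosen by their sample titles. O_VC_D4_J and O_VC_D7_J are Sprague Dawley rats that received abdominal irradiation in 5 fractions of 4 Gy each, between days 0 and 4, and oral water, sampled at day 4 or day 7. NT_D4_J and NT_D7_J are rats of the same strain that received the same abdominal irradiation and no drug, sampled on the same days. All 4 groups were irradiated, so non-irradiated, untreated rats (NI_J, 6 libraries) are given only as a level for orientation. The labels used here give no age and no volume or schedule of the water. The question the design implies is whether dosing with water alone changes the irradiated jejunum, since this vehicle is what the powder is set against.

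The jejunal epithelium renews itself from stem cells at the base of its crypts. Their daughters become absorptive enterocytes, which carry digestive enzymes and transporters on a brush border, or secretory cells, among them mucus-producing goblet cells, Paneth cells and hormone-producing enteroendocrine cells. Radiation kills dividing crypt cells, in part through the p53 pathway, and the surviving crypts later proliferate to restore the lining. Expression is given as CPM, read counts scaled to a common library size. A difference is the log2 ratio of oral vehicle over irradiation alone in an edgeR quasi-likelihood fit, with its standard error (SE), and a gene is called where its p, adjusted by Benjamini-Hochberg over the 12501 genes tested, is under 0.05. The libraries are whole epithelial samples, so fewer cells of a type and less RNA per cell cannot be told apart.

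The libraries held 17725569 to 19733814 counts each. The markers matched the label: the epithelial gene Epcam stood between 1501 and 5994 CPM in every library and the small intestinal fatty acid carrier Fabp2 between 1026 and 13490 CPM, while the distal colon gene Hoxb13 had 6 counts and Hoxd10 0 counts over all 24 libraries. The leukocyte gene Ptprc did not exceed 4.19 CPM and the smooth muscle gene Myh11 did not exceed 7.79 CPM. Replicates 1 to 3 of every group belong to library series 1 and replicates 4 to 6 to library series 2, by the first digit of the library name. Replicate 3 of the vehicle group at day 4 and replicate 2 of irradiation alone at day 4 were chosen, after the data were seen, to be left out together: the first had the highest score of the 12 day 4 libraries on component 2 (31.4) and the second the lowest of all 24 on component 1 (-65.1). Vehicle replicate 4 at day 4 was the lowest of all on component 2 (-48.1) and was left out only in turn. The goblet, mitosis, crypt and absorptive lists at day 4 are given with and without the pair. The median within-group SD of log2 CPM over genes was 0.40 for vehicle and 0.48 for irradiation alone at day 4, and 0.37 in both groups at day 7.

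**Figure D1:**
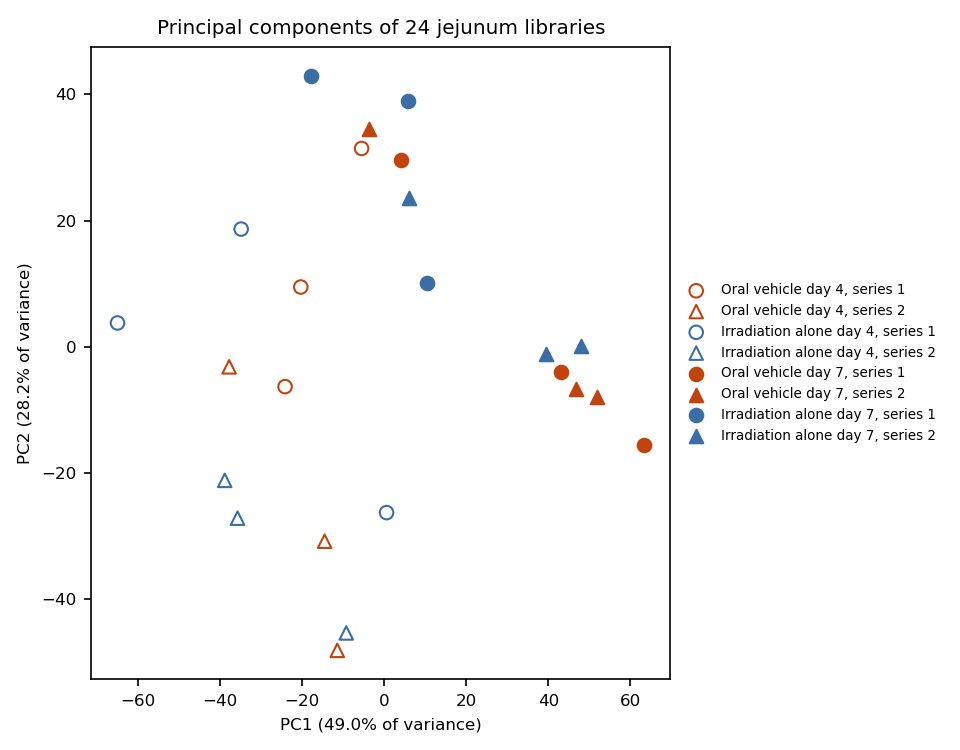
Scores of the 24 jejunum libraries on the first 2 principal components of log2 CPM of 1000 genes (axes in score units, with the share of variance), open symbols at day 4, filled at day 7, circles for series 1 and triangles for series 2. All 12 day 4 libraries lie below 1 on the first component, and the 6 libraries above 39 are 4 vehicle and 2 irradiation-alone libraries of day 7.

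Oral water and irradiation alone were hardly separable gene by gene. At day 4, 0 of 12501 genes (0%) were called, and the smallest adjusted p was 0.329 (edgeR); DESeq2 also called 0. At day 7, 1 gene (0.008%) was called, and averaged over both days 1 gene (0.008%) was called, in each case Nlrx1, which was higher with vehicle. For scale, irradiation alone against non-irradiated rats called 5495 genes (44%) at day 4 and 7352 genes (58.8%) at day 7 in the same fit. These irradiation comparisons share the irradiation-alone libraries with the vehicle comparison.

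How large a difference could have been missed was read from 95% intervals of single genes, not adjusted for the number of genes. Averaged over days, the median absolute log2 difference was 0.18 and the median half-width of a 95% interval was 0.32. The whole interval lay within 1 log2 unit of no difference for 10360 genes (82.9%). Within a single day this held for 8701 genes (69.6%) at day 4 and 8815 genes (70.5%) at day 7. At an unadjusted p under 0.05 there were 1150 genes (9.2%) at day 4, of which 628 (5.02%) were higher and 522 (4.18%) lower. At day 7 there were 586 (4.69%), of which 373 (2.98%) were higher and 213 (1.7%) lower. Averaged over days there were 1627 (13%), of which 858 (6.86%) were higher and 769 (6.15%) lower. These counts depended on single libraries. With 1 library left out they ran from 389 (without vehicle replicate 3 at day 4) to 2974 (without irradiation-alone replicate 1 at day 4) for day 4. For day 7 they ran from 171 (without vehicle replicate 2 at day 7) to 2516 (without vehicle replicate 4 at day 7), and for the average from 791 (without irradiation-alone replicate 2 at day 4) to 3602 (without irradiation-alone replicate 1 at day 4). The log2 difference was above 0 for 48.4% of genes at day 4, 47.6% at day 7 and 47.7% averaged over days.

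No difference between the days was called. The test of the day 7 difference minus the day 4 difference called 0 genes (0%) with edgeR, with 417 (3.34%) at an unadjusted p under 0.05 (1.76% higher and 1.58% lower at day 7 relative to day 4), and 0 with DESeq2. This value was above 0 for 48.2% of genes.

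Nlrx1 encodes a mitochondrial member of the NOD-like receptor family, described as a modulator of innate immune signalling. At day 7 it stood at 255.6, 479.5, 5.01, 5.28, 472 and 269.5 CPM in vehicle replicates 1 to 6, against 3.71 to 6.73 CPM in the 6 libraries of irradiation alone, whose median was 5.09. Thus 4 vehicle libraries were far above every library of irradiation alone and the other 2, 1 from each library series, lay inside its range, so the groups overlapped. The log2 difference was 5.61 ± 1.01 SE, 48.8-fold, with a 95% interval of 3.56 to 7.65 and an adjusted p of 0.0303 (edgeR).

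At day 4 the same gene had a lowest value of 3.52, a median of 5.12 and a highest value of 101.3 CPM with vehicle, against 3.07, 5.19 and 6.96 CPM with irradiation alone. Replicate 3 alone was high, and the other 5 vehicle libraries did not exceed 6.03 CPM. The day 4 log2 difference of 2.15 ± 0.90 SE was not called (adjusted p = 0.531, edgeR). Averaged over days the log2 difference was 3.88 ± 0.67 SE with an adjusted p of 0.0143. Without vehicle day 4 replicate 3 the average was 2.75 and was no longer called (adjusted p = 0.130). The day 7 call was also lost without vehicle replicate 2, 5 or 6 or without any single library of irradiation alone at day 7, with adjusted p between 0.0502 and 0.171, and in a fit of the 24 libraries alone (0.163). The test of the difference between days gave a log2 value of 3.46 ± 1.24 SE, which was not called.

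High and low Nlrx1 also occurred outside this comparison. In non-irradiated jejunum it ran from 4.78 to 91.4 CPM with a median of 35.2 CPM, and the 3 libraries of series 2 (44.5 to 91.4 CPM) were all above the 3 of series 1 (4.78 to 25.9 CPM). Jejunum of rats given the powder at day 7 ran from 5.09 to 303 CPM. In colon libraries of the same experiment, at day 7, the vehicle libraries with replicate numbers 1, 2, 5 and 6 stood at 361.5, 147.4, 411 and 79.0 CPM and those numbered 3 and 4 at 12.3 and 8.56 CPM, against 5.39 to 15.2 CPM with irradiation alone. At day 4, vehicle replicate 3 was also the highest colon library of its group, at 21.8 CPM, against 3.64 to 12.8 CPM in the other 5 and at most 13.7 CPM with irradiation alone. At day 7 the same vehicle replicate numbers were therefore high in both tissues. In non-irradiated colon, series 2 stood at 10.1 to 12.8 CPM and series 1 at 1.51 to 10.0 CPM, without the high values of series 2 jejunum. Colon and jejunum libraries with the same number share the number in the library name, although the labels do not state that they come from the same rat. The 4 high jejunum libraries lay at 43.2 to 63.4 on the first principal component, and irradiation-alone replicates 5 and 6 at 39.4 and 48.0 had 5.22 and 6.73 CPM.

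The promoter of Nlrx1, the only gene called in either test, is shown for reference (RefSeq, build GRCr8, chr8:53503244-53503543, minus strand, 250 bases before to 50 after the gene start, 5′ to 3′, capitals marking GC boxes):
Nlrx1: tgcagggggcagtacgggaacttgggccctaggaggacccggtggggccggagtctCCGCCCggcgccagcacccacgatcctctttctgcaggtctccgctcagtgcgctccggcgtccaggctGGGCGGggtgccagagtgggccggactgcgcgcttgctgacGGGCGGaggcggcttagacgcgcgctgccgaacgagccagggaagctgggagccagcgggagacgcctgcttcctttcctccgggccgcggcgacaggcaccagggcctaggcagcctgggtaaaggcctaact
It has a G+C content of 71.0%, against a median of 51.7% over the 33469 promoters in the table. The letters GGGCGG or, on the other strand, CCGCCC occur 3 times, and 33.1% of all promoters of this length hold at least 1. Neither CCAAT nor TATAAA occurs on either strand, against 37.5% and 14.2% of promoters that hold them. In RefSeq order the genes beside Nlrx1 are Nherf4, entered in the counts as Pdzd3, and Abcg4. Nherf4, a scaffold protein of the brush border, averaged 105.7 CPM with vehicle and 66.0 CPM with irradiation alone at day 7 (log2 difference 0.71 ± 0.30 SE, adjusted p = 0.729), and Abcg4, a sterol transporter, 0.512 and 0.588 CPM (log2 difference -0.17 ± 0.30 SE, adjusted p = 0.823). Drc12, next beyond Nherf4 and entered as Ccdc153, averaged 0.793 and 0.304 CPM at day 7 (log2 difference 1.42 ± 0.45 SE, adjusted p = 0.729). Unadjusted p at day 7 (edgeR) was 0.0217 for Nherf4 and 0.00324 for Drc12. Further out, Cbl, Hinfp and C2cd2l had day 7 log2 differences of -0.09, 0.13 and -0.39, none called. The strand setting of the counting is not given in the sources used here, so reads from overlapping or antisense transcripts could not be told apart from those of Nlrx1.

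Behind Nlrx1, a pair of weakly expressed genes had the next smallest p-values at day 7. H3f3c, which RefSeq annotates as a pseudogene of histone H3.3 and whose reads can be shared with near-identical copies, stood at 1.37, 1.71 and 2.00 CPM in vehicle replicates 1 to 3 and at 19.5, 33.7 and 35.98 CPM in replicates 4 to 6, against 1.06 to 1.74 CPM in irradiation alone. All 3 high values were in library series 2, whereas the 3 series 2 libraries of irradiation alone stood at 1.37 to 1.41 CPM. Its log2 difference was 2.95 ± 0.61 SE and missed the threshold (adjusted p = 0.0965, edgeR). In colon at day 7 the same split appeared, with vehicle replicates 4 to 6 at 30.4 to 61.3 CPM and replicates 1 to 3 at 2.22 to 2.53 CPM, against 1.61 to 2.62 CPM in irradiation alone. Rats given the powder showed it too at day 7, with replicates 4 to 6 at 16.2 to 37.3 CPM and replicates 1 to 3 at 1.46 to 1.57 CPM in jejunum, and 23.3 to 47.9 CPM and 1.73 to 1.87 CPM in colon.

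Thegl, entered in RefSeq as Spmap2l, was singled out after its values were seen. It ran from 0.732 to 1.95 CPM in vehicle libraries at day 7, against 0 to 0.116 CPM in irradiation alone, so that the groups did not overlap (log2 difference 4.79 ± 0.99 SE, adjusted p = 0.0965, edgeR). At day 4 the ranges overlapped, at 0.909 to 4.40 CPM with vehicle and 0.244 to 4.19 CPM with irradiation alone, and non-irradiated jejunum ran from 0.151 to 3.41 CPM. In colon at day 7 Thegl again ran from 0.789 to 2.90 CPM with vehicle and from 0.101 to 0.177 CPM with irradiation alone. With the powder at day 7 Thegl ran from 0.914 to 3.72 CPM in jejunum.

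Groups that do not overlap were few. At day 4, 10 genes (0.08%) had all vehicle libraries above all libraries of irradiation alone and 11 genes (0.088%) had them all below. At day 7 the counts were 6 (0.048%) and 9 (0.072%).

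**Figure D2:**
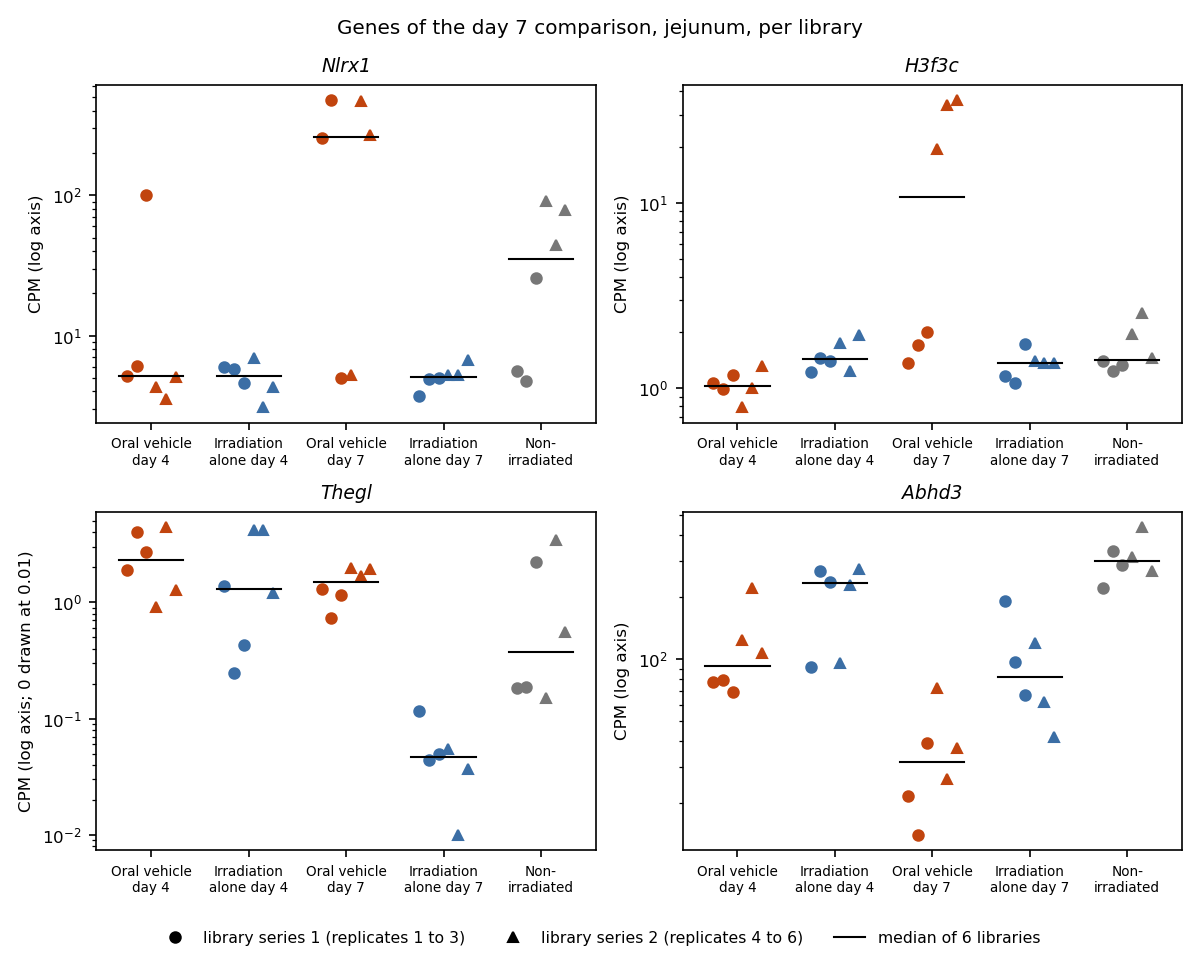
CPM on log axes of Nlrx1, H3f3c, Thegl and Abhd3 in each of 30 jejunum libraries, by group, with the median as a line, circles for series 1 and triangles for series 2. Nlrx1 is high in 4 of 6 vehicle libraries at day 7, H3f3c in the 3 vehicle libraries of series 2, and Thegl is lowest in irradiation alone at day 7.

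Averaged over days, the 10 genes with the smallest p and a mean of at least 5 CPM were Nlrx1 and 9 that were not called. Abhd3, a phospholipase of membrane phospholipids, had a lowest value of 13.9, a median of 31.5 and a highest value of 72.6 CPM with vehicle at day 7, against 41.9, 81.5 and 192.7 CPM with irradiation alone. Its groups overlapped on both days, with the vehicle median lower on both. Averaged over days its log2 difference was -1.19 ± 0.25 SE (adjusted p = 0.193, edgeR), and DESeq2 called it. Slc9a3, the sodium-proton exchanger NHE3 of the brush border, had 371 to 609 CPM with vehicle at day 4, against 669 to 1029 CPM with irradiation alone, with no overlap, and averaged over days its log2 difference was -0.67 ± 0.16 SE (adjusted p = 0.298). Mcf2l had 6.46 to 14.2 CPM with vehicle at day 4, against 3.26 to 5.88 CPM, again with no overlap (average log2 difference 0.80 ± 0.18 SE, adjusted p = 0.238). Averaged over days, DESeq2 called Mcf2l as well.

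Among the other 6, Osbpl9, a lipid transfer protein, was higher with vehicle (average log2 difference 0.43 ± 0.12 SE, adjusted p = 0.373). The remaining 5 were lower. They were Bpgm, which makes 2,3-bisphosphoglycerate (-0.60 ± 0.16 SE), Ptprh, a receptor tyrosine phosphatase (-0.70 ± 0.18 SE), Lpin3, a phosphatidate phosphatase (-0.56 ± 0.15 SE), Tcaf2, a regulator of TRP channels (-0.36 ± 0.09 SE), and Amdhd2, an enzyme of amino sugar metabolism (-0.31 ± 0.08 SE), each with an adjusted p of 0.373. Bpgm did not overlap at day 7, with 6.52 to 9.38 CPM with vehicle and 12.2 to 20.2 CPM with irradiation alone.

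Of the 47 gene lists, that of goblet cells had the largest median difference at day 4. All 16 tested members of the goblet cell list were higher with vehicle at day 4, against 48.4% of all genes, and 12 of them had an unadjusted p under 0.05, against 5.02% of all genes in that direction. None was called. The list median was 1.37 on the log2 scale, against -0.01 over all genes tested. At day 7, 10 of the 16 were higher, 0 had an unadjusted p under 0.05 in either direction, and the median was 0.12. The summed level of the list at day 4 ran from 1272 to 3417 CPM with vehicle, against 435.4 to 1229 CPM with irradiation alone, so that the sums did not overlap, and at day 7 from 1210 to 2417 CPM against 909.8 to 2815 CPM.

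Muc2, the gel-forming mucin of intestinal mucus, whose counts stand under the older identifier AABR07006030.1, had a lowest value of 280.0, a median of 368 and a highest value of 946 CPM with vehicle at day 4, against 96.6, 170.1 and 271 CPM with irradiation alone. Every vehicle library was above every library of irradiation alone, and the log2 difference was 1.46 ± 0.43 SE (adjusted p = 0.415, edgeR). At day 7 Muc2 had 173.7, 255 and 383 CPM with vehicle, against 127.6, 271 and 446 CPM, and the difference was -0.04 ± 0.42 SE. The difference between days was not called (adjusted p = 0.9999, edgeR).

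Atoh1, which directs crypt progenitors to a secretory fate, had 5.09, 7.39 and 16.0 CPM with vehicle at day 4, against 1.38, 2.40 and 5.15 CPM with irradiation alone, with only the highest library of irradiation alone above the lowest vehicle library (log2 difference 1.75 ± 0.45 SE, adjusted p = 0.340). Spdef, which drives goblet cell maturation, had 8.10, 11.0 and 16.5 CPM, against 2.28, 6.11 and 7.55 CPM, with no overlap (log2 difference 1.06 ± 0.29 SE, adjusted p = 0.390). Hepacam2, an immunoglobulin-family adhesion protein, had the smallest day 4 p of the genes above 5 CPM, with 8.65, 14.3 and 29.7 CPM against 6.06, 6.43 and 8.90 CPM (log2 difference 1.23 ± 0.29 SE, adjusted p = 0.329). Of the secreted products, the mucus protein Fcgbp had a log2 difference of 1.51 ± 0.44 SE and the trefoil peptide Tff3 of 1.32 ± 0.42 SE, neither called. Spdef, Bcas1, Lrrc31 and Fcgbp were chosen for description after their values were seen.

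Most goblet genes stayed higher at day 4 in subsets of the libraries. Without vehicle replicate 3 and irradiation-alone replicate 2 at day 4, all 16 members were still higher and 10 had an unadjusted p under 0.05, with a median of 1.11. In that fit 221 genes had such a p in either direction, over all genes it tested. In series 1 alone 15 of 16 were higher and 9 had such a p, and in series 2 alone 16 of 16 and 10. Over all genes, 922 had such a p at day 4 in series 1 alone and 326 in series 2 alone, in either direction. Non-irradiated libraries split by series, and Muc2 stood there at 3136 to 3737 CPM in series 1 and at 460 to 569 CPM in series 2. The mitochondrially encoded share of counts at day 4 was 8.79% ± 3.21 with vehicle and 12.7% ± 5.86 with irradiation alone (SD, n = 6 each), a difference of -3.92 percentage points (exact permutation test within library series, 2-sided, p = 0.230, 400 relabelings). At day 7 it was 5.40% ± 1.32 and 5.39% ± 1.83 (exact p = 1). With this share as a covariate all 16 goblet genes were still higher at day 4, and 7 rather than 12 had an unadjusted p under 0.05, while the number over all genes was 2423 rather than 1150.

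**Figure D3:**
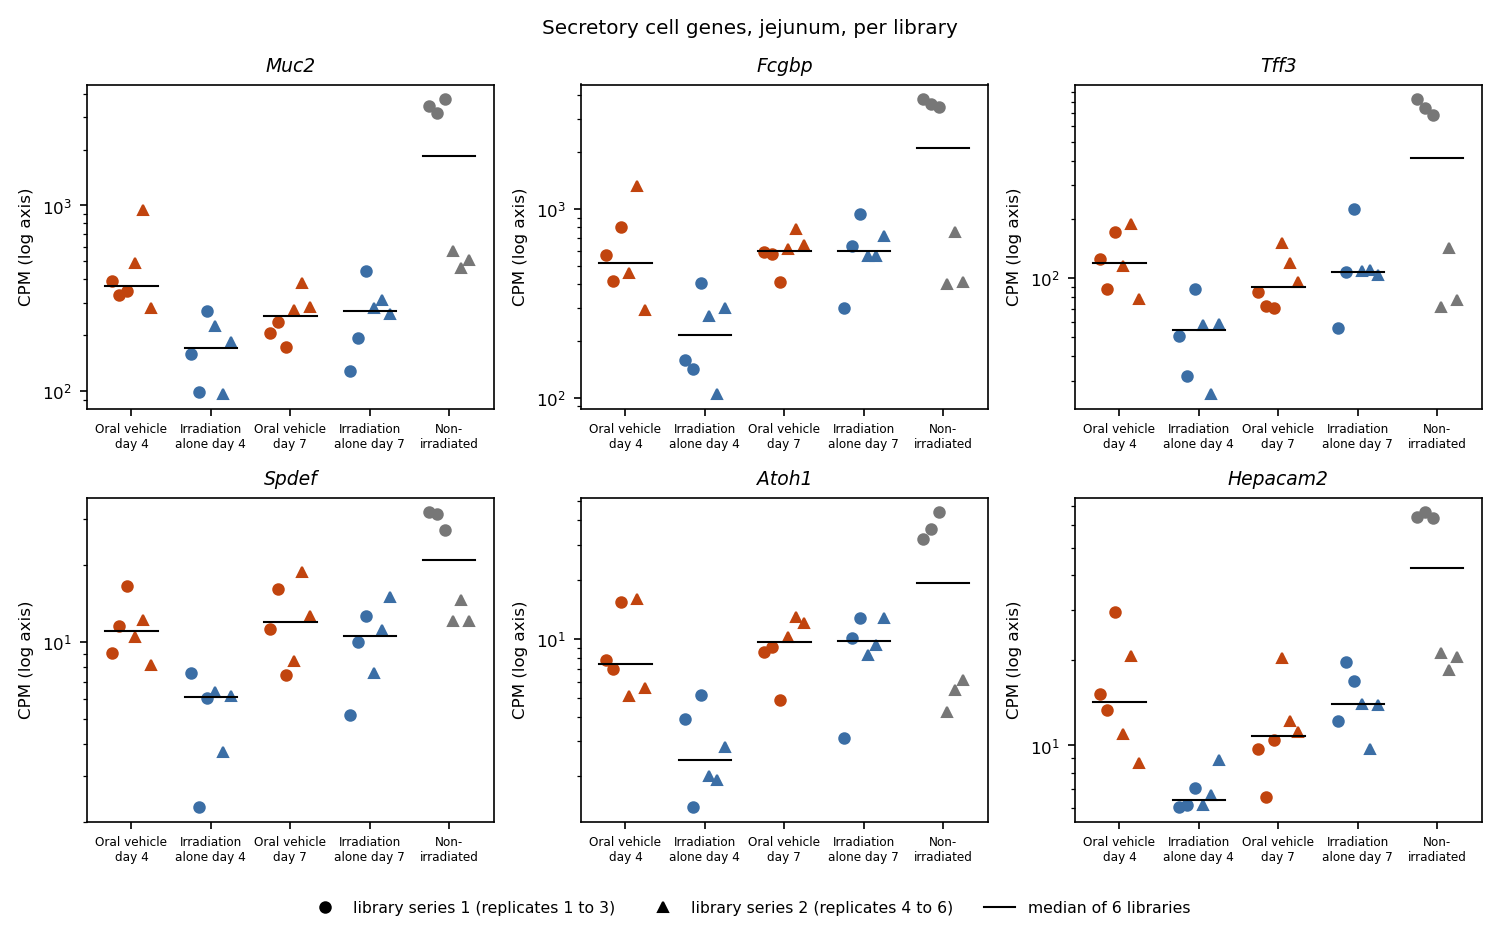
CPM on log axes of Muc2, Fcgbp, Tff3, Spdef, Atoh1 and Hepacam2 in each of 30 jejunum libraries, by group, with the median as a line, circles for series 1 and triangles for series 2. Day 4 medians are higher with vehicle for all 6 genes, with no overlap for Muc2 and Spdef, day 7 groups overlap for all 6, and non-irradiated libraries split by series.

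Of the Paneth cell and antimicrobial list, 7 of 10 tested members were higher with vehicle at day 4, 3 of them at an unadjusted p under 0.05 (5.02% of all genes in that direction), with a median of 0.64. At day 7, 4 of 10 were higher, 0 had such a p in either direction and the median was -0.29, and no member was called on either day. Lyz2, a lysozyme, had 52.7, 130.3 and 372 CPM with vehicle at day 4, against 25.4, 49.6 and 97.7 CPM with irradiation alone (log2 difference 1.44 ± 0.46 SE, adjusted p = 0.421). Reg3g, an antimicrobial lectin, spanned 245 to 5422 CPM with vehicle at day 4, against 366 to 7457 CPM, and its average log2 difference of -0.59 had a 95% interval of -1.85 to 0.67.

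Enteroendocrine genes at day 4 had 12 of 22 members higher and a median of 0.05. At day 7, 18 of 22 were lower with vehicle, 5 of them at an unadjusted p under 0.05 (1.7% of all genes in that direction), with a median of -0.54. Cck, the gene of the hormone cholecystokinin, had a lowest value of 5.75, a median of 6.47 and a highest value of 19.4 CPM with vehicle at day 7, against 8.84, 17.1 and 25.1 CPM with irradiation alone. Only vehicle replicate 4 exceeded 7.97 CPM. The log2 difference was -0.97 ± 0.27 SE (adjusted p = 0.729, edgeR). Gip, the gene of a glucose-dependent incretin, had a day 7 log2 difference of -0.85 ± 0.42 SE. In series 1 alone, 20 of 22 were lower at day 7 and 14 had an unadjusted p under 0.05, and in series 2 alone 8 of 22 were lower and 0 had such a p. Over all genes, 1104 had such a p at day 7 in series 1 alone and 162 in series 2 alone, in either direction. The difference between series was not tested.

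Proliferation genes were mostly higher with vehicle on both days, and none was called. Of the mitosis list, 22 of 22 members were higher at day 4 and 22 of 22 at day 7, with medians of 0.78 and 0.36, and 6 at day 4 and 0 at day 7 had an unadjusted p under 0.05. Over all genes, 5.02% at day 4 and 2.98% at day 7 were higher at such a p. Of the DNA replication list, 22 of 23 were higher on each day, with medians of 0.69 and 0.42, and 7 were higher at such a p at day 4, while at day 7 none was higher and 1 was lower at such a p. Of the ribosome biogenesis list, 21 of 21 were higher on each day, with a median of 0.43 on both days, and 0 at day 4 and 1 at day 7 had such a p. Averaged over days, 11 of 22 mitosis and 12 of 23 DNA replication genes were higher at such a p, against 6.86% of all genes. Of the ribosome biogenesis list, 4 of 21 were. Without vehicle replicate 3 at day 4 these averaged counts were 0, 1 and 1. Members of these lists are transcribed together in dividing cells, so their counts are not independent observations.

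Mki67, the proliferation antigen, had 22.4, 35.2 and 108.2 CPM with vehicle at day 4, against 5.29, 19.3 and 75.6 CPM with irradiation alone, and 54.4, 102.3 and 172.1 CPM at day 7, against 46.8, 79.9 and 130.9 CPM. The ranges overlapped widely on both days. The average log2 difference was 0.51 ± 0.27 SE with a 95% interval of -0.05 to 1.06. Top2a, the topoisomerase of dividing cells, and Tk1, the thymidine kinase of S phase, had average log2 differences of 0.73 ± 0.31 SE and 0.76 ± 0.32 SE, neither called (adjusted p = 0.373 each, edgeR).

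Vehicle replicate 3 at day 4 held the highest Top2a (74.7 CPM, others 13.6 to 29.5 CPM) and Tk1 (72.8 CPM, others 9.80 to 32.0 CPM) of its group. Without that library and irradiation-alone replicate 2, 22 of 22 mitosis genes were still higher at day 4, with a median of 0.14 in place of 0.78, and 0 had an unadjusted p under 0.05. Without vehicle replicate 3 alone, that median was 0.34, again with 0 such genes. The DNA replication list at day 4 had a median of 0.38 without vehicle replicate 3 and 0.20 without both libraries, with 0 such genes in place of 7. The ribosome biogenesis list at day 4 had a median of 0.21 without vehicle replicate 3, and 0.02 with 15 of 21 higher without both. By library series, the day 4 median of the mitosis list was 1.00 in series 1 and 0.35 in series 2, and the day 7 median 0.65 and 0.13. In series 2 alone the day 7 median was 0.06 for DNA replication and 0.07 for ribosome biogenesis.

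Crypt stem cell and Wnt target genes had 13 of 18 members higher at day 4 and 15 of 18 at day 7, with medians of 0.52 and 0.54 and with 3 and 4 at an unadjusted p under 0.05. Averaged over days, 7 of 18 were higher at such a p, against 6.86% of all genes, and 3 without vehicle replicate 3 at day 4. Over all genes, 5.02% at day 4 and 2.98% at day 7 were higher at such a p. Olfm4, a crypt base marker, had 1.59, 5.97 and 158.8 CPM with vehicle at day 4, against 0.163, 1.19 and 10.6 CPM with irradiation alone. The highest value was vehicle replicate 3, and the other 5 did not exceed 14.2 CPM. Its day 4 log2 difference was 3.25 ± 0.88 SE (adjusted p = 0.354, edgeR), and at day 7 it was 0.00 ± 0.73 SE. Smoc2, a secreted stem cell marker, had log2 differences of 1.88 ± 0.54 SE at day 4 and 0.38 ± 0.50 SE at day 7, neither called. Lgr5, the receptor that marks crypt base stem cells, was low throughout, at 0.506 to 1.27 CPM with vehicle at day 4, against 0.184 to 1.61 CPM, and at 0.686 to 3.38 CPM at day 7, against 0.217 to 2.29 CPM (day 7 log2 difference 1.06 ± 0.45 SE, adjusted p = 0.729). Without those 2 day 4 libraries, 10 of 18 members were higher at day 4, with a median of 0.08. In series 1 alone the day 4 median was 0.75, with 16 of 18 higher, and in series 2 alone 0.06, with 9 of 18 higher. At day 7 the medians were 0.89 and 0.26, with 15 of 18 higher in each series. The difference between series was not tested.

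Absorptive genes were mostly lower with vehicle, none of them called. Of the brush border list, 22 of 29 tested members were lower with vehicle at day 4 and 29 of 29 at day 7, with medians of -0.23 and -0.44, and 0 and 2 had an unadjusted p under 0.05. Over all genes, 4.18% at day 4 and 1.7% at day 7 were lower at such a p. Of the lipid absorption list, 25 of 26 were lower at day 4 and 24 of 26 at day 7, with medians of -0.29 and -0.37 and with 0 such genes on either day. Tmprss15, the enteropeptidase that converts trypsinogen to trypsin, had 5.09, 22.5 and 135.8 CPM with vehicle at day 7, against 34.7, 128.9 and 384 CPM with irradiation alone, with overlapping ranges (log2 difference -1.50 ± 0.55 SE, adjusted p = 0.729, edgeR). Alpi, the intestinal alkaline phosphatase, spanned 227 to 2688 CPM at day 7 with vehicle, against 570.1 to 3774 CPM, and Lct, the lactase, 0.837 to 896 CPM, against 24.5 to 2348 CPM. Their average log2 differences were -0.53 (95% interval -1.15 to 0.10) and -0.64 (95% interval -2.07 to 0.79). Npc1l1, the cholesterol uptake transporter, had an average log2 difference of -0.54 ± 0.23 SE (adjusted p = 0.373).

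Values within each library series were unlike. In series 1, 29 of 29 brush border genes were lower at day 7 with a median of -0.86, whereas in series 2 the count was 17 of 29 with a median of -0.02. For lipid absorption at day 7 the medians were -0.74 in series 1 and -0.03 in series 2. At day 4, without vehicle replicate 3 and irradiation-alone replicate 2, 13 of 29 brush border genes were lower, with a median of 0.04, and 12 of 26 lipid genes, with a median of 0.01. The difference between series was not tested.

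MHC class II genes, which present antigen and are expressed by enterocytes as well as immune cells, were lower with vehicle in 11 of 12 members on each day. At day 7, 6 of 12 had an unadjusted p under 0.05, against 1.7% of all genes in that direction, and the list median was -0.91; at day 4 it was -0.51 with 0 such genes. Cd74, the invariant chain, had a lowest value of 22.9, a median of 53.1 and a highest value of 164.3 CPM with vehicle at day 7, against 30.7, 185.4 and 439 CPM with irradiation alone. The ranges overlapped, since irradiation-alone replicates 5 and 6 had 47.5 and 30.7 CPM. The log2 difference was -1.54 ± 0.48 SE (adjusted p = 0.729, edgeR). RT1-Ba and RT1-Da, which encode class II chains and have close paralogs among which reads can be split, had day 7 log2 differences of -1.79 ± 0.57 SE and -1.43 ± 0.50 SE, neither called.

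Values again differed by library series, which was not tested. In series 1 at day 7, 11 of 12 class II genes were lower, 9 with an unadjusted p under 0.05, and the median was -2.07. In series 2, 4 of 12 were lower, 0 had such a p, and the median was 0.14. Over all genes at day 7, 1104 had such a p in series 1 alone and 162 in series 2 alone, in either direction. Immune cell markers were low at day 7. Ptprc had 0.1003 to 1.82 CPM with vehicle and 0.399 to 1.54 CPM with irradiation alone, and Cd79a, a B cell gene, had 12 counts over all 24 libraries. Of the macrophage list, 8 of 16 members were lower at day 7, and their part in the class II values was not tested.

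Of the inflammatory list, 17 of 22 members were lower with vehicle at day 4, with a median of -0.49. Of these, 2 had an unadjusted p under 0.05, against 4.18% of all genes in that direction. At day 7, 9 of 22 were lower, with a median of 0.10. Outside that list, Bcl3 and Cx3cl1 were among the 10 smallest p at day 4 without being called. Bcl3, an IκB-family regulator of NF-κB, had 51.6, 73.0 and 92.4 CPM with vehicle, against 54.9, 133.1 and 249.8 CPM (log2 difference -0.95 ± 0.22 SE, adjusted p = 0.329). Cx3cl1, the chemokine fractalkine, had 57.7, 104.9 and 133.8 CPM, against 114.1, 154.6 and 210.9 CPM (log2 difference -0.66 ± 0.16 SE, adjusted p = 0.329). Both ranges overlapped. Lcn2, an antimicrobial siderophore-binding protein, was among the 10 smallest p at day 7 with the opposite sign, at 22.7, 48.5 and 71.4 CPM with vehicle, against 1.74, 18.2 and 23.9 CPM (log2 difference 1.66 ± 0.49 SE, adjusted p = 0.729). The inflammatory genes Il1b and Nos2 had average log2 differences of -0.47 (95% interval -1.38 to 0.45) and -0.71 (95% interval -1.85 to 0.44).

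Genes of other cell types were examined for admixture. Fibroblast and matrix genes were lower with vehicle in 19 of 23 members at day 4 and 17 of 23 at day 7, with no member at an unadjusted p under 0.05, and their summed level ran from 13.2 to 132 CPM with vehicle at day 4, against 28.4 to 102.5 CPM, and from 24.1 to 249 CPM at day 7, against 20.1 to 125.2 CPM. Macrophage genes were lower in 10 of 16 members at day 4, with sums of 150.8 to 436 CPM with vehicle against 137.0 to 178.1 CPM. These sums include Lyz2, also on the Paneth cell list. Lyz2 ran from 52.7 to 372.3 CPM with vehicle, highest in replicate 3, against 25.4 to 97.7 CPM with irradiation alone. T cell and cytotoxic genes were lower in 18 of 20 members at day 4, with sums of 69.5 to 113.1 CPM against 69.8 to 121.5 CPM. Their part in the gene groups above was not tested.

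**Figure D4:**
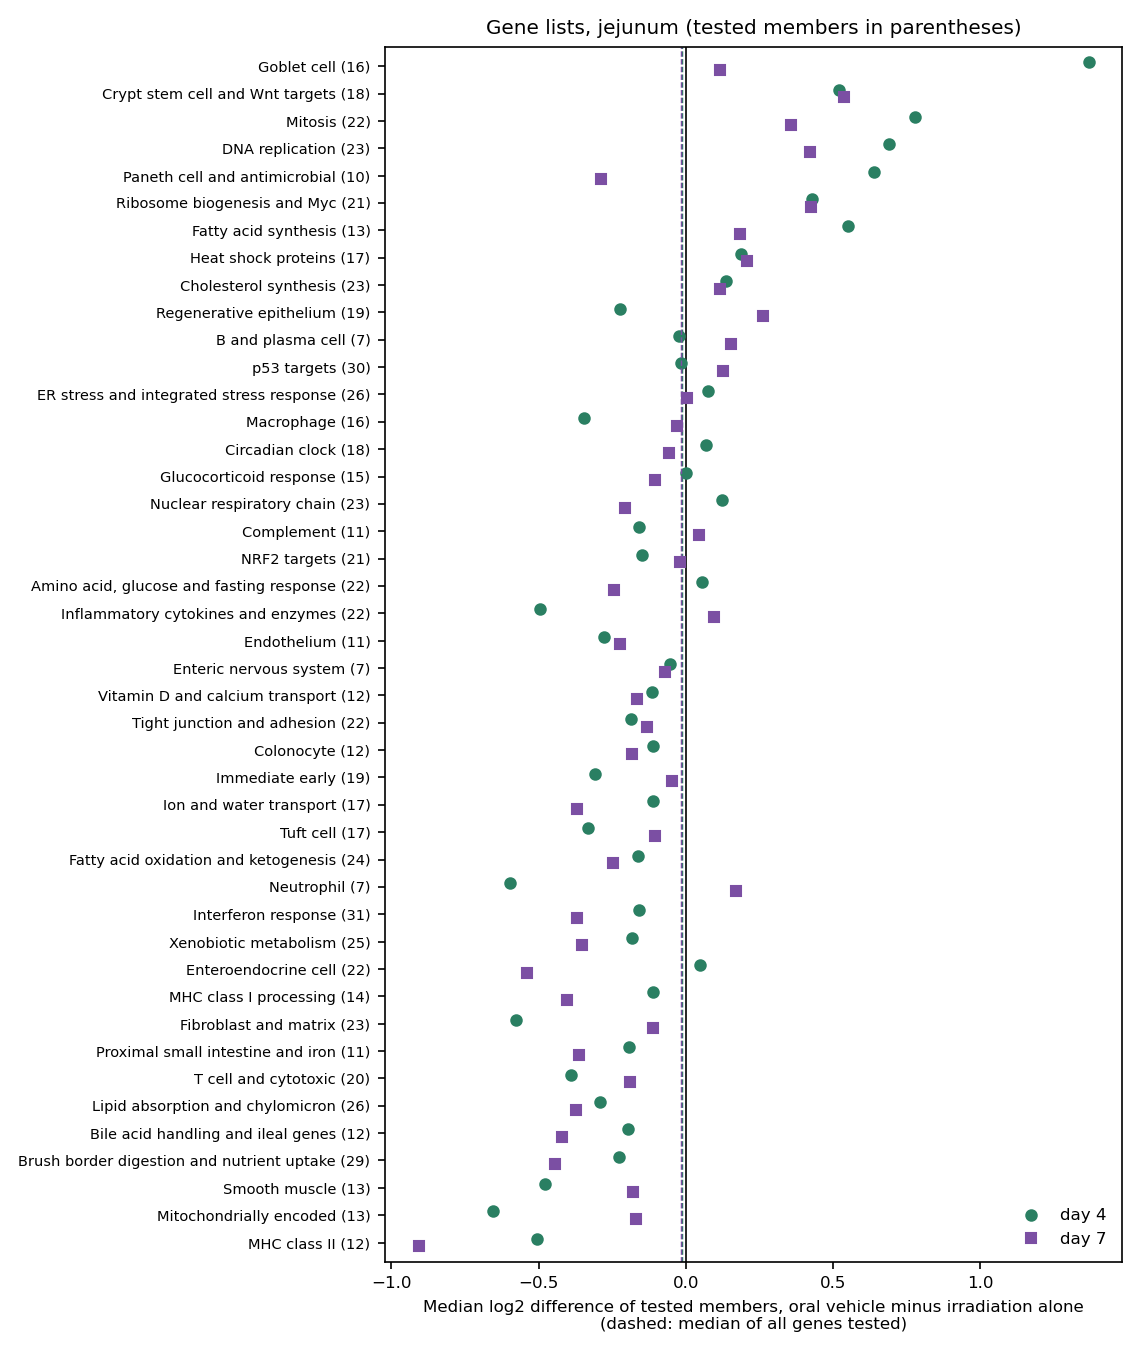
Median log2 difference (oral vehicle minus irradiation alone) of the tested members of 44 gene lists with at least 7 tested members, at day 4 (circles) and day 7 (squares), with the median of all 12501 genes dashed. The goblet cell list stands out at day 4 (1.37) and not at day 7 (0.12), and MHC class II lies lowest at day 7 (-0.91).

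Among the other lists, fatty acid synthesis genes were higher in 10 of 13 members at day 4, 4 of them at an unadjusted p under 0.05 (5.02% of all genes in that direction, median 0.55), and in 8 of 13 at day 7 (median 0.18). Without vehicle replicate 3 at day 4, 11 of 13 were higher at day 4, 0 had such a p, and the median was 0.34. The mitochondrially encoded genes were lower in 13 of 13 at day 4 (median -0.66) and 11 of 13 at day 7 (median -0.17). The interferon response list was lower in 22 of 31 at day 4 (median -0.16) and 25 of 31 at day 7 (median -0.37). Over all 47 lists, with 777 of 991 listed genes tested, 0 held a called gene. The p53 targets, which DNA damage induces, had 15 of 30 members higher at day 4 and 20 of 30 at day 7, with medians of -0.02 and 0.13. Cdkn1a, the p53-induced cell cycle inhibitor, had 177.4, 360 and 464 CPM with vehicle at day 4, against 316, 381 and 477 CPM with irradiation alone, and its average log2 difference was -0.06 with a 95% interval of -0.28 to 0.16. Mdm2, the p53 ubiquitin ligase, had an interval of -0.29 to 0.13. A difference of 1 log2 unit lay outside both intervals.

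Of a panel of 38 genes covering damage, crypt, secretory, absorptive, metabolic, clock and immune functions, 37 were tested and 0 were called. At an unadjusted p under 0.05 there were 4 of 37 at day 4 (9.2% of all genes), 5 of 37 at day 7 (4.69% of all genes) and 4 of 37 averaged over days (13% of all genes), and 15 of the 37 were higher averaged over days. For 13 of the 37 the whole average interval lay within 1 log2 unit of no difference. The glucocorticoid targets Tsc22d3 and Fkbp5 had average log2 differences of -0.02 (95% interval -0.46 to 0.41) and -0.08 (95% interval -0.42 to 0.25). The clock genes Nr1d1 and Dbp, whose levels follow the hour of sampling, had -0.47 (95% interval -1.15 to 0.20) and 0.19 (95% interval -0.61 to 1.00).

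**Figure D5:**
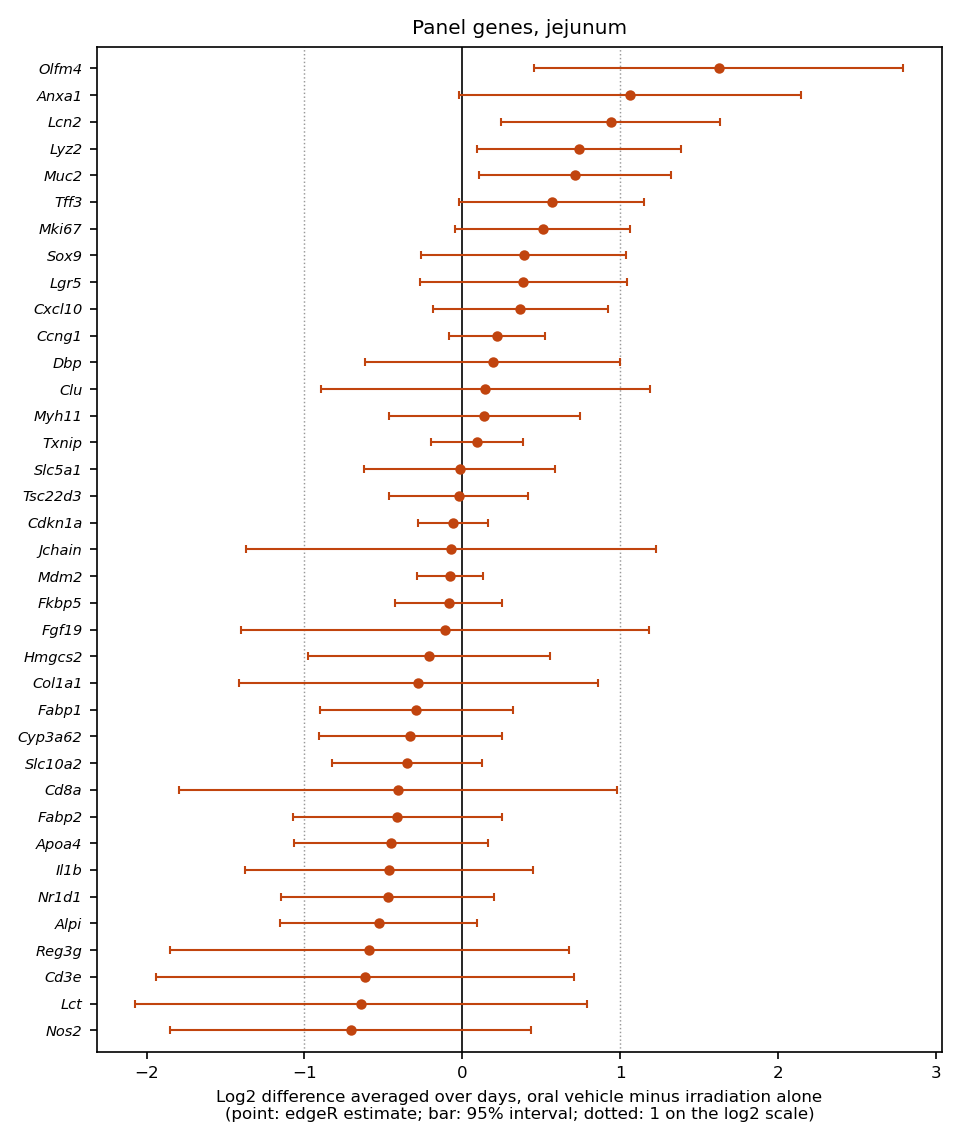
Log2 difference averaged over days (oral vehicle minus irradiation alone) of 37 panel genes, with 95% intervals derived from the edgeR F statistic. Dotted lines mark 1 log2 unit. The intervals of Olfm4, Lcn2, Lyz2 and Muc2 exclude 0 before adjustment, and none of the 37 genes was called after it.

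The rest of the day 4 and day 7 genes with the smallest p were also uncalled. At day 4 they were Asph, an aspartate hydroxylase (log2 difference 1.27 ± 0.32 SE), Coq8a, of coenzyme Q synthesis (1.37 ± 0.36 SE), Map3k4, a stress-activated kinase (0.46 ± 0.12 SE), Sgms1, a sphingomyelin synthase (-0.66 ± 0.17 SE), and Usp20, a deubiquitinase (-0.54 ± 0.13 SE), with adjusted p between 0.329 and 0.354. At day 7 all 5 were nearer to 0 than at day 4, between -0.36 for Coq8a and -0.01 for Asph. At day 7 the others were Rhbg, an ammonium transporter (-0.63 ± 0.16 SE), Map3k5, a stress-activated kinase (0.57 ± 0.16 SE), Akp3, an intestinal alkaline phosphatase close in sequence to Alpi (-1.74 ± 0.50 SE), and Dpysl2, a cytoskeletal regulator (1.32 ± 0.39 SE). Rhbg did not overlap at day 7, with 11.2 to 17.2 CPM with vehicle and 17.3 to 24.8 CPM with irradiation alone.

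The 5 genes with the smallest p in the test between days were H3f3c, Abcc12, Lrrc26, Hepacam2 and Kprp, all with an adjusted p of 0.9999 (edgeR). Abcc12, a transporter, was at 0 in 5 of 6 libraries of irradiation alone at day 7, with at most 0.352 CPM with vehicle. Kprp, an epidermal gene, reached 0.169 CPM with vehicle at day 4, against 3.53 CPM with irradiation alone, so that both rest on few counts. Hepacam2 had log2 differences of 1.23 at day 4 and -0.25 at day 7. Lrrc26, a channel subunit, had 2.07 and -0.06 at levels under 2 CPM.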

How the data were processed

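RNA of 132 rat colon and jejunum epithelium libraries was sequenced, per the labels, on a DNBSEQ-G400 as paired reads. The authors deposited unnormalized read counts for 21837 gene symbols. The submitters' processing notes name STAR 2.7.10a and mRatBN7.2. Which counter, annotation release and strand setting were used is not given in the sources used here, so genes that share or overlap sequence can be split or merged. All 84 library columns of the table were mapped to labels. The 42 jejunum libraries of the oral experiment (7 groups) were fitted together with edgeR 4.0.16 in R 4.3.3 (TMM factors, filterByExpr by group, quasi-likelihood F test, Benjamini-Hochberg over 12501 genes, 0.05), with library series as a covariate. Every adjusted p is from this fit unless DESeq2 1.42.0 is named, which was an alternative. CPM are edgeR's, with TMM factors. Contrasts were vehicle minus irradiation alone at day 4, at day 7, their average and their difference. The labels call each library a biological replicate. Each p-value sets a group difference against a spread between libraries, estimated jointly over the 7 groups of the fit. In the 24 libraries compared, totals of 17725569 to 19733814 counts leave this spread, and counting error for genes of few counts, as the limits of precision. The mitochondrial share was compared by an exact permutation test within library series.

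Genes were named by rule: the 10 smallest p among genes with a proper name and mean CPM of at least 5, for each of the average, day 4 and day 7 contrasts, since fewer than 5 were called, the 5 smallest p of the difference between days, and a panel of 38. Further genes were shown after their values were seen (Thegl, Spdef, Bcas1, Lrrc31, Fcgbp, Smoc2, Prom1, Top2a, Tk1, Gnl3, Cd74, RT1-Ba, RT1-Da, Tmprss15, Npc1l1, Gip, Il33, Krt7, Mt2A). Thegl and Lrrc31 are on none of the gene lists, and the others are list members. The groups compared, the panel and the 47 lists were chosen with earlier results of these data known, and lists are described by counts and medians with no set test. Of 991 listed genes, 153 were below the filter and 61 had no entry under their symbol, and 4 were found under a RefSeq synonym. Gene order and promoter come from RefSeq (GRCr8), a build other than that of the files, and 17345 symbols matched. The edgeR contrasts were tested on simulated counts in which 200 genes were changed. The simulation held no library series effect, and the other statistics were not tested in this way. The alternatives were another normalization, DESeq2, no filter, only the 24 libraries, no series term, a replicate block, each series alone, the mitochondrial share as covariate, mitochondrial genes left out, and each library left out. The list counts under these, and the fit without vehicle replicate 3 and irradiation-alone replicate 2 at day 4, were added after seeing the data.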

Additional observations from a re-analysis of the deposited data

Results flagged for a closer look

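Of 336 sets of 6 libraries (84 genes in 4 groups), 44 held 1 library far from the other 5 (Dixon's criterion, 0.625). The criterion's 5% level holds for independent sets of normal values. CPM need not be normal, genes of 1 library can move together, and many of the genes were chosen by their p or values. The count is therefore not read against chance. Values are CPM.

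Vehicle replicate 3 at day 4 held 8 of them: Nlrx1 at 101.3 (others 3.52 to 6.03), Lrrc26 at 1.43, Olfm4 at 158.8, Lyz2 at 372.3, Smoc2 at 34.58, Top2a at 74.67, Tk1 at 72.8 and Mt2A at 143.2. In the same group replicate 5 was highest for Abhd3 (221.0), Muc2 (946.0), Cd3e (0.763) and RT1-Ba (371.2), replicate 4 for Col1a1 (2.243) and replicate 6 for Il33 (126.9). With vehicle at day 7, replicate 4 was highest for Cck (19.37), Cd3e (0.1584), Cd8a (0.2111) and Gip (26.39), replicate 5 for Col1a1 (11.13) and Fgf19 (60.94), and replicate 6 for Bcl3 (78.48) and Nos2 (12.56), while replicate 3 was lowest for Bcas1 (5.615, others 19.6 to 27.5).

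With irradiation alone at day 4, replicate 1 was highest for Mki67 (75.62), Il1b (4.57), Nos2 (66.37), Top2a (35.82) and Tk1 (44.53). Replicate 2 was highest for Cyp3a62 (2891), Nr1d1 (156.3) and Tmprss15 (668.0), replicate 5 for Cd8a (2.028) and replicate 6 for Hepacam2 (8.898). With irradiation alone at day 7, replicate 1 was highest for Lct (2348) and Nr1d1 (41.67), replicate 2 for Coq8a (24.57) and Lyz2 (127.7) and lowest for Mdm2 (45.99), and replicate 3 highest for Tff3 (226.9), Reg3g (6121), Jchain (4.174) and Fgf19 (80.01). Replicate 5 was highest for Abcc12 (0.04045) and replicate 6 for Mcf2l (17.9).

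In the colon libraries, which the comparison does not use, Nlrx1 reached 410.8 with vehicle at day 7, against at most 15.24 with irradiation alone, and H3f3c reached 61.33, against at most 2.615.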

How the results depend on the processing

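At day 4, edgeR called 1 gene in library series 1 alone, 1 in series 2 alone (Lsg1, lower), and 0 to 1 with a library left out (Lrrc26 without irradiation-alone replicate 6). At day 7, DESeq2 called 5 (Abhd3, H3f3c, Nlrx1, Osbpl9 and Thegl), the fit with no series term 2, series 2 alone 2 (Ackr3 and H3f3c), the replicate block 0, and fits with a library left out 0 to 3 (3 without vehicle replicate 4, namely Abhd3, Cck and Nlrx1). Averaged over days, DESeq2 called 6 (AABR07049503.1, Abhd3, Mcf2l, Nlrx1, Thegl and Zfp862). Series 2 alone called 2, the replicate block 0, and the fit without vehicle replicate 3 and irradiation-alone replicate 2 at day 4 0. Fits with a library left out called 0 to 3, with 0 without vehicle day 4 replicate 3 and 3 (Abhd3, Mcf2l and Nlrx1) without irradiation-alone day 7 replicate 6. With only the 24 libraries compared, the 1 gene called at day 7 and on average was Thegl, not Nlrx1. The averaged count at an unadjusted p under 0.05 was then 793, against 1627 in the main fit. The difference between days gave 1 call (H3f3c) in series 2 alone and 0 to 0 with a library left out. The day 7 mitochondrial difference was -0.873 percentage points in series 1 alone and 0.876 in series 2 alone, against 0.00169 overall. The cause of these changes was not tested. Same-numbered libraries of 2 groups are not paired by the labels: of 12 pairs, 7 had correlated deviations above 0.1 (range -0.396 to 0.761), and 4 matched best with their own number. Depth limits genes under about 1 CPM, such as Abcc12 and Kprp.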
